A study of Mus musculus with 28 samples.

Results

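The genes described here are 10 genes of the NRF2 antioxidant program, Nfe2l2, Nqo1, Gclc, Gclm, Srxn1, Txnrd1, G6pdx, Slc7a11, Osgin1 and Gpx2. They were taken by name as known genes of the pathway, with earlier results of these data in view, and their levels were read in 28 RNA-seq samples of mouse liver, pancreas and lung. They are 10 of the 35928 gene symbols in the 16 samples quantified per transcript, called set 2, and 10 of the 24845 genes in the 12 samples quantified per gene, called set 1.

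The A3B mice carried human APOBEC3B fused to turboGFP, placed at the ColA1 locus under a tetracycline operator, together with the CAGs-rtTA3 driver, which is active in many tissues. APOBEC3B (A3B) is a cytosine deaminase. Doxycycline in the food from 4 weeks of age switched the transgene on, and the A3B mice were killed when they became ill. Set 2 held livers of 6 A3B mice (44, 48, 49, 125, 137 and 153) and 2 controls (45 and 168), and pancreases of 6 A3B mice (44, 49, 53, 125, 137 and 153) and the same 2 controls, with 10 days of doxycycline in the labels for all of them. A figure legend of the study describes its 2 control animals for liver and pancreas as without doxycycline, whereas its methods state that control littermates received it. Doxycycline may therefore differ between A3B and control samples of set 2. Set 1 held livers of A3B mice 23 and 28 (14 days) and 70 (10 days) and of controls 11, 91 and 92, and lungs of A3B mice 69, 70 and 74 (10 days) and of controls 87, 88 and 91. The labels give 15 days of doxycycline for the controls of set 1, whereas the study's list of mice gives no days for controls 88, 91 and 92 and a shorter time for control 87. By label the controls had the transgene but no driver, except lung control 87, labelled with the driver alone, and liver control 11 and both control pancreases, labelled with both. The labels of pancreases 44 and 137 lack the driver and those of control pancreases 45 and 168 name it, so these 4 samples were grouped by title. Each replicate is a separate mouse, but 5 A3B mice and both controls of set 2 gave liver and pancreas, and mice 70 and 91 gave liver and lung.

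NRF2, the product of Nfe2l2, is a transcription factor that the adaptor KEAP1 holds in the cytoplasm and passes on for degradation. Oxidants and electrophiles modify KEAP1, NRF2 then reaches the nucleus, pairs with small MAF proteins and binds antioxidant response elements. Its best known targets make glutathione, renew thioredoxin, supply NADPH and detoxify quinones, and the liver is rich in many of them.

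The response element has the core TGACNNNGC. RefSeq promoter windows of 300 bases (250 before and 50 after the start of the gene, build GRCm38.p6) were searched on both strands for this core and for a second form, TGAGNNNGC. For 9 of the 10 genes the table held a window, all but Gclc, with 11 windows in all because Txnrd1 has several starts. Distances are from the RefSeq start of the window, which for Txnrd1, G6pdx and Osgin1 lies inside the gene span printed below from GENCODE, so that the matches of these 3 genes lie within that span. The core was found in the windows of 5 genes, Nfe2l2, Srxn1, Gclm, Txnrd1 and G6pdx, and the second form in those of 3, Srxn1, Slc7a11 and Osgin1. Among all 32851 windows 12.4% held the core and 17.6% the second form. Neither was found in the windows of Nqo1 and Gpx2, which says only that these letters are not in those 300 bases. The matches are shown with 8 bases on each side, 5′ to 3′ along the gene, because they are the sequence feature that names this group of genes. Capitals mark the match, and a match that starts with GC lies on the opposite strand. No match overlapped another.
Nfe2l2, chr2:75704887-75704911, minus strand, core 240 bases before the start: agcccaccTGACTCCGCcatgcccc
Gclm, chr3:122245415-122245439, plus strand, core 134 bases before the start: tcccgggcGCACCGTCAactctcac
Txnrd1, chr10:82859106-82859130, plus strand, core 92 bases before the start: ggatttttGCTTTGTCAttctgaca
G6pdx, chrX:74428921-74428945, minus strand, core 57 bases before the start: gcgggtcaGCTCAGTCAaagcacac
Slc7a11, chr3:50443694-50443718, minus strand, second form 97 bases before the start: atgttggcGCTTTCTCAagctggag
Osgin1, chr8:119437040-119437064, plus strand, second form 99 bases before the start: gggcccctGCTGACTCAcgcttatg
The window of Srxn1 is given whole, since it held 3 matches, the second form 158 and 45 bases before the start and the core from base 29 after it.
Srxn1, chr2:152105274-152105573, plus strand: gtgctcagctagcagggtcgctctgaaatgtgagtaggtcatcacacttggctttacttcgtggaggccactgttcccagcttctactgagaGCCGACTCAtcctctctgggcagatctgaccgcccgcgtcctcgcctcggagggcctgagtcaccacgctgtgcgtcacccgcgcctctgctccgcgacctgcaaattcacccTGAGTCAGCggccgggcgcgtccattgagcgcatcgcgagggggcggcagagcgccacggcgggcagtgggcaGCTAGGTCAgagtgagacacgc

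The files of set 2 hold estimated counts and TPM (a length-corrected level scaled to the same total in every sample), and totals of estimated counts ran from 65161064 to 118976013. Set 1 holds TPM only, so its depth is not known here. Transgene RNA was read in set 1, where it was 0.0928 to 0.144 TPM in control livers and 705 to 1705 TPM in A3B livers, and 0.435 to 0.5257 TPM in control lungs and 90.6 to 281 TPM in A3B lungs. The transgene was not analysed in set 2. Mitochondrial genes took 21.5% of the counts of A3B liver 48 and 10.1% of those of A3B liver 49, against 3.0% to 4.76% in the other livers of set 2. The 10 hepatocyte markers summed to 48819 to 108966 TPM in A3B livers and 119606 and 175120 TPM in control livers of set 2, and the 10 alveolar type II and club markers to 21214 to 23494 TPM in all lungs, so these livers and lungs held the markers of their label. The sets were quantified in different ways and levels are compared only within a set.

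**Figure D1:**
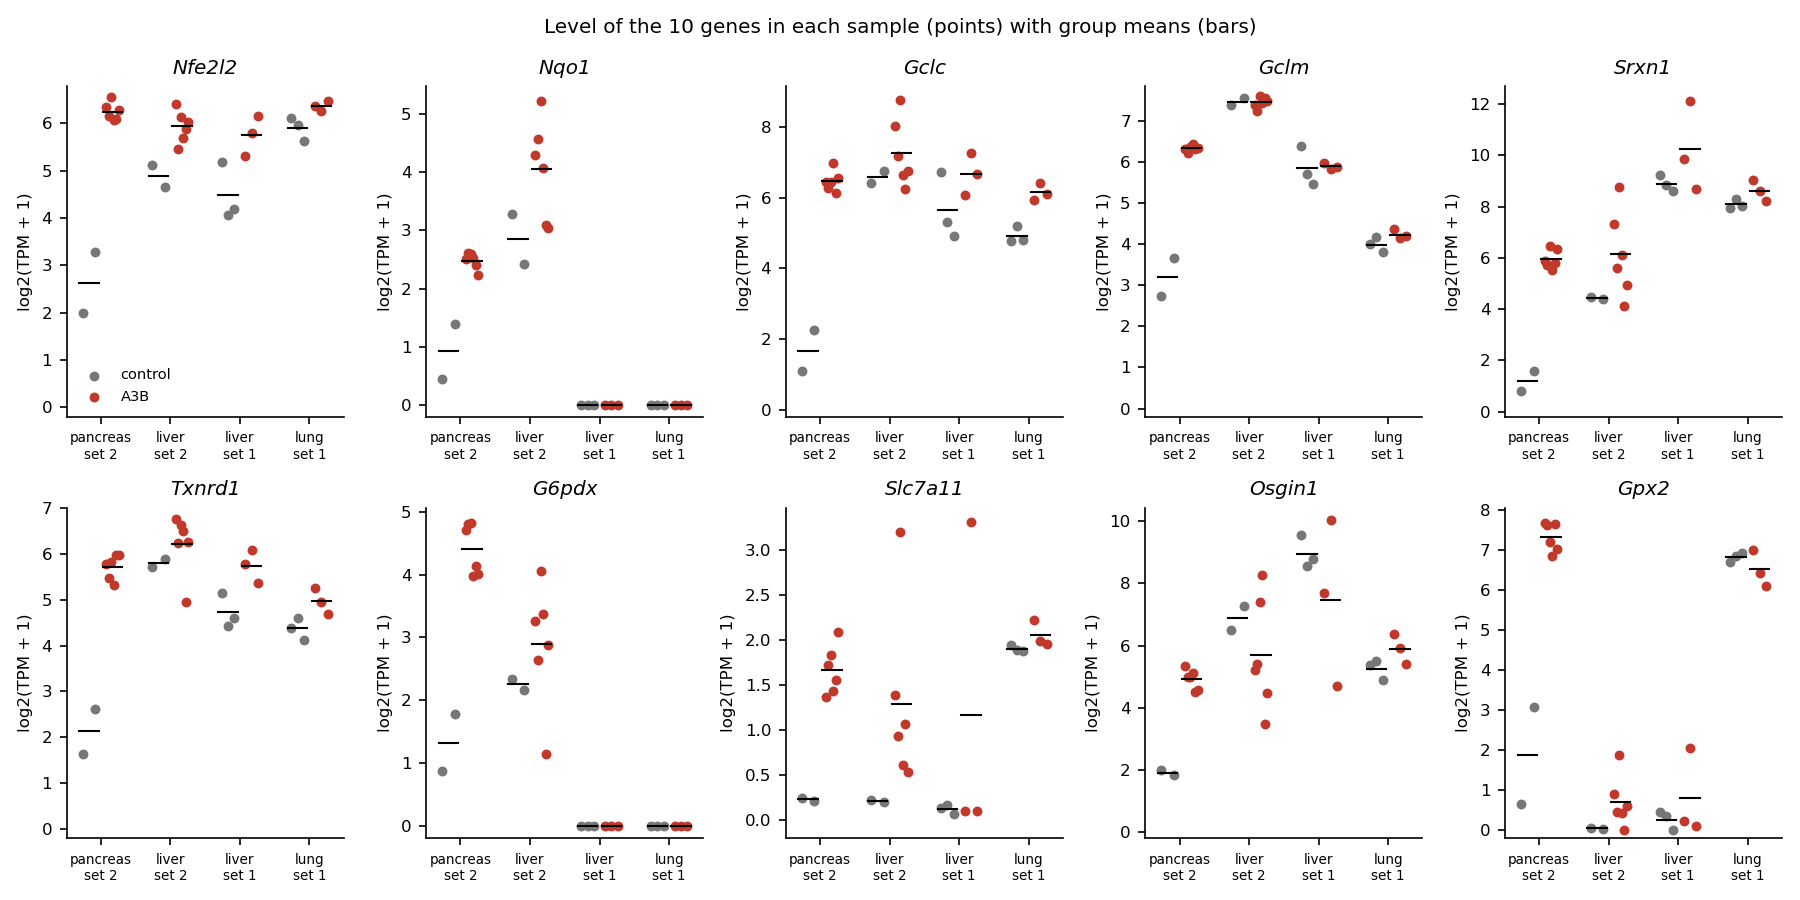
Level of each of the 10 genes as log2(TPM + 1), each point 1 sample (grey, control; red, A3B) and each bar the mean of its group, for pancreas and liver of set 2 and liver and lung of set 1; each panel has its own vertical axis. In the pancreas the 6 A3B samples lie above both controls for every gene, and in liver and lung most groups overlap.

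The question in the pancreas was which of these genes differ between A3B and control mice. All 10 genes had a higher TPM in each of the 6 A3B pancreases than in both controls, as did 70.8% of the 19142 genes tested. After scaling by TMM (trimmed mean of M-values, which sets the level against the bulk of the genes), 7 of the 10 rose and none fell at an adjusted p under 0.05, against 17.0% of all genes tested that were called higher and 14.9% called lower. The median log2 difference was 1.59 over the 10 genes and 0.09 over all genes tested. None of the 10 was below 0. In edgeR 9 had an unadjusted p under 0.05, as had 8318 of the 19142 genes tested, in either direction.

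Nfe2l2 (chr2:75675513-75704641, minus strand) encodes NRF2 itself. It was 2.96 and 8.76 TPM in control pancreases 45 and 168, and in the A3B pancreases it ran from 66.1 to 93.6 TPM with a median of 73.3. The 6 A3B samples lay close together and far above both controls, and the log2 difference was 1.58 (SE 0.26, adjusted p = 0.0015, edgeR).

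Gclc and Gclm are the catalytic and the modifier subunit of glutamate-cysteine ligase, the first step of glutathione synthesis. Gclc (chr9:77754535-77794485, plus strand) was 1.13 and 3.77 TPM in the controls and 68.7 to 126 TPM in the A3B pancreases, with a median of 85.8. Its log2 difference of 3.07 (SE 0.33, adjusted p = 0.000249) was among the largest of the 10. Gclm (chr3:122245557-122270732, plus strand) was 5.70 and 11.6 TPM in the controls and 73.0 to 85.3 TPM in the A3B samples, the narrowest A3B range of the group for its level, with an SD of 4.04 around a mean of 79.7. Its TMM-scaled log2 difference was only 0.64 (SE 0.20, adjusted p = 0.0344), and the call was lost without A3B pancreas 44, 137 or 153 and without either control (adjusted p from 0.0531 to 0.189). Slc7a11 (chr3:49892526-50443614, minus strand), the cystine importer that feeds the same pathway, was 0.190 and 0.163 TPM in the controls and 1.59 to 3.26 TPM in the A3B samples. Its log2 difference of 1.27 (SE 0.51, adjusted p = 0.0817) did not pass. It depended on the control kept: without control 45 it was 2.52 (adjusted p = 0.0125) and without control 168 it was 0.60 (adjusted p = 0.355).

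Srxn1 and Txnrd1 keep the peroxiredoxin and thioredoxin systems reduced. Srxn1 (sulfiredoxin, chr2:152105516-152111376, plus strand), whose promoter window held 3 matches, was 0.766 and 1.98 TPM in the controls. In the A3B pancreases it ran from 44.5 to 86.5 TPM with a median of 56.2. It had the smallest p of the 10, with a log2 difference of 3.17 (SE 0.30, adjusted p = 0.000159). Txnrd1 (thioredoxin reductase 1, chr10:82833951-82897712, plus strand) was 2.13 and 5.15 TPM in the controls and 38.8 to 61.6 TPM in the A3B samples, with a log2 difference of 1.68 (SE 0.30, adjusted p = 0.00227).

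G6pdx and Nqo1 make and use NADPH. G6pdx (glucose-6-phosphate dehydrogenase, chrX:74409483-74429194, minus strand) was 0.825 and 2.42 TPM in the controls and 14.8 to 27.4 TPM in the A3B pancreases. The A3B samples fell into a lower run, 125, 137 and 153 at 14.8 to 16.6 TPM, and a higher one, 44, 49 and 53 at 25.3 to 27.4 TPM, all above the controls, and the log2 difference was 1.60 (SE 0.28, adjusted p = 0.00237). Nqo1 (the quinone reductase, chr8:107388225-107403206, minus strand), often used as a reporter of NRF2 activity, had the smallest log2 difference of the 10. It was 0.371 and 1.63 TPM in the controls and 3.68 to 5.15 TPM in the A3B samples, and its log2 difference after TMM was 0.19 (SE 0.33, adjusted p = 0.697), with a sign that turned to -0.18 without control 45.

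Gpx2, a glutathione peroxidase best known from the gut epithelium, showed the largest log2 difference of the 10 in the pancreas. Gpx2 (chr12:76792333-76795554, minus strand) was 0.579 and 7.48 TPM in the controls and 113 to 203 TPM in the A3B pancreases. The controls stood far apart, and the log2 difference of 3.49 (SE 0.66, adjusted p = 0.00413) was 2.76 without control 45 and 5.28 without control 168. Most of its TPM was assigned to a transcript of 1010 bases annotated without a coding sequence, at 90.0% to 95.8% of the gene in A3B samples. The protein-coding transcript of 1067 bases was listed at 0 in both control pancreases and at 4.53 to 19.4 TPM in the A3B pancreases. Osgin1 (oxidative stress induced growth inhibitor 1, chr8:119434124-119446256, plus strand) was 2.97 and 2.58 TPM in the controls and 22.0 to 39.3 TPM in the A3B samples. Its log2 difference of 0.97 (SE 0.39, adjusted p = 0.0843) did not pass. Across the main and alternative runs this difference ranged from 0.41 to 3.41, and leaving out control 45 gave 1.92.

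The scaling decided how large these differences were. TMM factors were 0.210 and 0.443 in the control pancreases and 1.30 to 1.79 in the A3B pancreases. With counts scaled by their totals all 10 genes were called higher with a median log2 difference of 3.78, but the median of all genes tested then was 2.29. Relative to that shift Nqo1, at 2.23, lay below the median gene. With limma on log2(TPM + 1) all 10 were called too, and 11405 of 13597 genes were called higher.

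**Figure D2:**
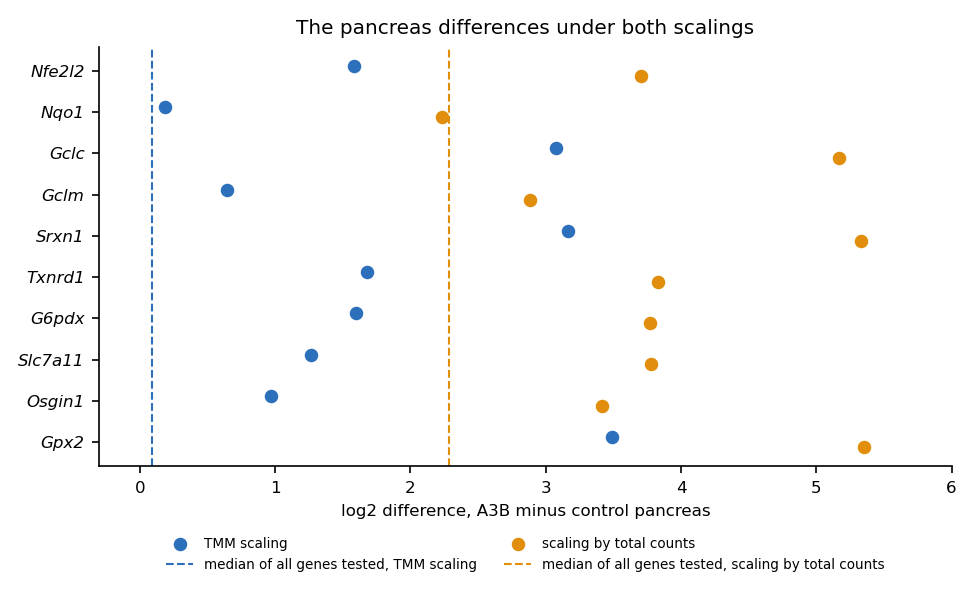
Log2 difference between A3B (n = 6) and control (n = 2) pancreases for each gene, on the horizontal axis, with counts scaled by TMM (blue) and by their totals (orange); dashed lines are the medians of all genes tested, 0.09 and 2.29. The order of the genes is much the same under both, and Nqo1 lies near the median line in each.

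Markers of cell types moved in the same comparison, where 17.0% of all genes tested were called higher and 14.9% lower. Marker calls are after TMM, whereas the sums are in TPM, in which 70.8% of all genes tested were higher in every A3B pancreas than in both controls. The 10 acinar markers summed to 415812 and 416777 TPM in control pancreases and to 74742 to 193534 TPM in A3B pancreases, none was at 0 in any of these samples, and 9 of 10 fell. Of the 12 macrophage markers 9 rose, from sums of 52.4 and 582 TPM to 2267 to 6548 TPM, with at most 1 of them at 0 in a sample. Of the 10 fibroblast markers 7 rose, from 44.9 and 207 TPM to 1057 to 1602 TPM, and of the 10 ductal markers 5 rose, from 112 and 162 TPM to 1628 to 3367 TPM. The 2 scales parted for the 10 islet markers. Under TMM 3 of them were called lower and none higher, while their sums were 3436 and 3512 TPM in controls and 3765 to 13307 TPM in A3B pancreases. The part of these shifts in the differences of the 10 genes was not tested. In whole tissue, fewer cells of a type and less RNA per cell cannot be told apart.

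**Figure D3:**
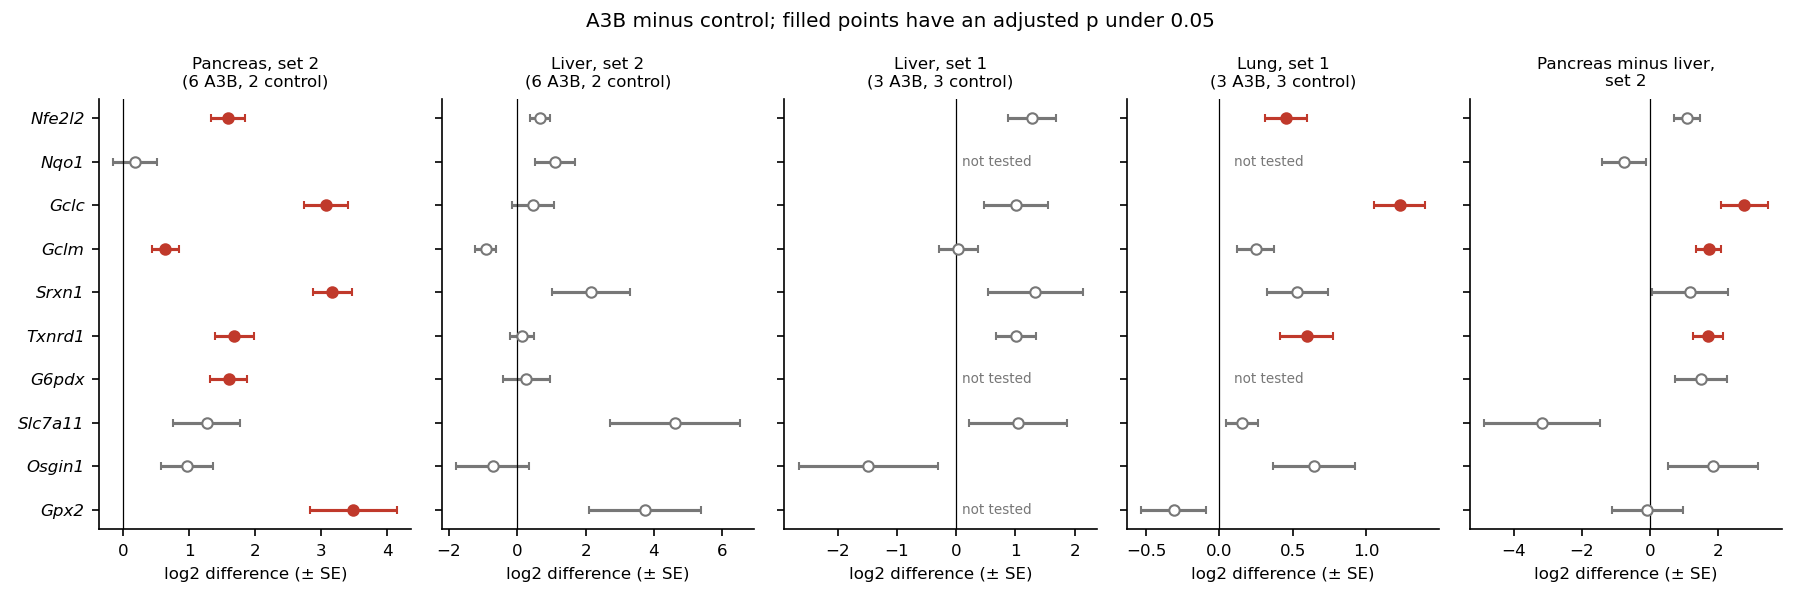
Log2 difference between A3B and control with its standard error for each gene in the 4 comparisons, and, at the right, the pancreas difference minus the liver difference in set 2; filled red points passed an adjusted p of 0.05 and each panel has its own horizontal axis. Filled points are 7 in the pancreas, none in either liver, 3 in the lung and 3 in the tissue difference.

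In the liver of set 2 none of the 10 genes was called. Of all genes tested by edgeR 1.25% were called higher and 2.41% lower. edgeR gave an unadjusted p under 0.05 for 3 of the 10, Slc7a11, Gpx2 and Gclm, and for 3987 of all 17376 genes tested. DESeq2 called 2 of the 10, Gclm lower (log2 difference -1.002, adjusted p = 0.0467) and Gpx2 higher (3.72, adjusted p = 0.0443). Of 24119 genes DESeq2 called 1286 higher and 1060 lower. In TPM, 2 of the 10, Nfe2l2 and Slc7a11, were higher in each A3B liver than in both controls, against 24.3% of all genes tested.

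The A3B livers differed widely among themselves. Liver 49 was the highest A3B liver for 7 of the 10 genes and liver 48, the library with the largest mitochondrial share, the lowest for 6. Srxn1 was 21.3 and 19.8 TPM in the controls and 160, 47.0, 428, 67.9, 16.5 and 29.9 TPM in A3B livers 44, 137, 49, 125, 48 and 153. Thus 5 of 6 A3B livers lay above the controls and 1 below, and the log2 difference of 2.15 (SE 1.13, adjusted p = 0.287) fell to 1.08 without liver 49. Gclc was 84.8 and 106 TPM in the controls and 259, 144, 437, 99.0, 74.1 and 107 TPM in the same order of A3B livers. Its log2 difference was 0.46 (SE 0.60, adjusted p = 0.684), and without liver 49 it was -0.06. The 12 macrophage markers summed to 1611 TPM in liver 49 and to 46.4 TPM in liver 48, against 499 to 887 TPM in the other A3B livers and 470 and 548 TPM in the controls, and the 10 hepatocyte markers to 48819 TPM in liver 49 and 61094 TPM in liver 48. Their part in the spread was not tested.

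Nfe2l2 was 33.6 and 24.1 TPM in the control livers and 43.0 to 84.2 TPM in the A3B livers, with a log2 difference of 0.66 (SE 0.30, adjusted p = 0.225). Slc7a11 was barely present in control livers, at 0.169 and 0.152 TPM. In the A3B livers it was 1.62, 0.920, 8.22, 0.528, 1.11 and 0.446 TPM for 44, 137, 49, 125, 48 and 153, so that all 6 lay above both controls while 1 animal stood far above the rest. The log2 difference of 4.62 (SE 1.90, adjusted p = 0.188) was 2.46 without liver 49 (adjusted p = 0.0602). Gpx2 had only 4 and 2 estimated counts in the controls and 50, 22, 131, 19, 0 and 28 in the A3B livers in that order, so its fitted difference of 3.73 (SE 1.65, adjusted p = 0.211) rests on a handful of control reads.

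The remaining liver genes did not separate. Nqo1 was 8.73 and 4.36 TPM in the controls and 7.19 to 36.2 TPM in the A3B livers, with 4 of 6 above both controls (log2 difference 1.11, SE 0.58, adjusted p = 0.285). Txnrd1 was 51.6 and 57.8 TPM in the controls and 74.3 to 107 TPM in 5 A3B livers, but 30.05 TPM in liver 48. G6pdx had the same shape, with 4.07 and 3.49 TPM in the controls, 5.22 to 15.7 TPM in 5 A3B livers and 1.20 TPM in liver 48. The log2 differences were 0.13 (SE 0.34, adjusted p = 0.847) for Txnrd1 and 0.27 (SE 0.68, adjusted p = 0.848) for G6pdx, and either sign was seen when single livers were left out. Osgin1 ran from 10.1 to 306 TPM in A3B livers, with livers 125 and 49 above and the other 4 below the controls at 88.5 and 152 TPM (log2 difference -0.72, SE 1.07, adjusted p = 0.725).

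Gclm behaved differently in counts and in TPM. Its TPM did not separate the groups, at 165 and 187 in the control livers and 150 to 193 in the A3B livers. Its estimated counts did, at 17435 and 19224 in the controls and 8112 to 11723 in the A3B livers, and the log2 difference in counts was -0.92 (SE 0.30, adjusted p = 0.115), which passed without liver 48 (-1.15, adjusted p = 0.0328). On log2(TPM + 1) it was -0.02. The transcripts differed in length. The longest, of 5589 bases, was 16.7 and 17.2 TPM in the control livers and 2.63 to 4.53 TPM in the A3B livers. Its share of the gene's TPM was 10.1% and 9.22% in controls and 1.75% to 2.44% in A3B livers, and in the pancreas 10.7% and 8.53% in controls against 2.32% to 3.02% in A3B samples. The mean transcript length weighted by TPM was 1466 and 1426 bases in the control livers and 951 to 1150 bases in the A3B livers. Gclm was not alone in this. For G6pdx the mean length was 2340 and 2172 bases in the control livers and 1362 to 2038 bases in the A3B livers. For Slc7a11 it was 2928 and 2876 bases in the controls and 3108 to 8841 bases in the A3B livers, longest in liver 49. The transcript values of Gclm were looked at after its counts and TPM were seen to differ. None of these transcript values was tested, and all rest on kallisto's division of reads among overlapping transcripts.

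**Figure D4:**
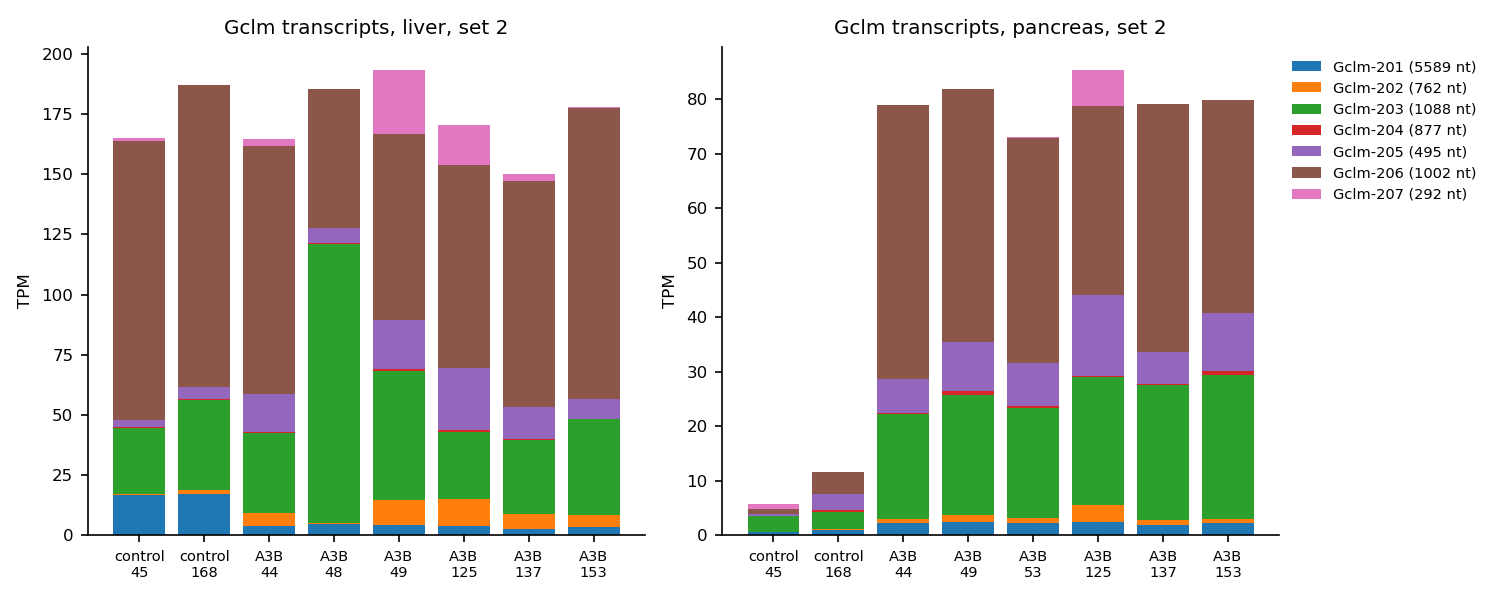
TPM of the 7 Gclm transcripts, stacked, in each liver and pancreas of set 2 (controls first, mouse number below each bar; transcript lengths in nucleotides in the key). The blue segment at the base, the transcript of 5589 bases, is 16.7 and 17.2 TPM in control livers and at most 4.53 TPM in A3B livers, while the full height of the liver bars is alike.

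Whether the signed log2 difference between A3B and control was not the same in the pancreas as in the liver was tested as an interaction over the 16 samples of set 2. The pancreas value was more positive for 3 of the 10 genes and more negative for none, against 6.87% of all genes tested that were more positive and 5.02% more negative. The pancreas value minus the liver value was 1.73 (SE 0.37, adjusted p = 0.0096) for Gclm, 2.78 (SE 0.69, adjusted p = 0.0192) for Gclc and 1.71 (SE 0.44, adjusted p = 0.0216) for Txnrd1. For Gclm the signs were opposite, -0.92 in the liver, where it was not called, and 0.64 in the pancreas, so its value does not stand for a larger difference in the pancreas under TMM; on log2(TPM + 1) the liver value was -0.02 and the pancreas value 3.13. Gclc and Txnrd1 were above 0 in both tissues, at 0.46 and 0.13 in the liver and 3.07 and 1.68 in the pancreas. With the mouse as a replicate block, since 7 mice gave both tissues, Gclm and Gclc stayed called and Txnrd1 did not (1.61, adjusted p = 0.0531). Without mouse 45 or without mouse 168, which leaves 1 control in each tissue, none of the 10 was called. Nfe2l2 (1.09, SE 0.37, adjusted p = 0.0677) and Srxn1 (1.19, SE 1.11, adjusted p = 0.51) were not shown to differ between the tissues, and Slc7a11 had an estimate of the other sign, -3.17 (SE 1.71, adjusted p = 0.232).

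In set 1 Nqo1 and G6pdx are among 4596 genes listed at 0 in all 12 samples, which can be a failed estimate, and Gpx2 had a mean under 1 TPM in the liver, so 7 of the 10 genes were tested there and 8 in the lung. Among the 7 liver genes none was called by limma, against 6.07% of all genes tested called higher and 1.86% lower. An unadjusted p under 0.05 in limma was seen for 2, Nfe2l2 and Txnrd1, and for 3755 of all 11507 genes tested. These 2 were also the genes that were higher in each A3B liver than in each control, a pattern seen in 28.5% of genes tested.

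Nfe2l2 was 35.3, 15.7 and 17.4 TPM in control livers 11, 91 and 92 and 39.0, 54.3 and 70.7 TPM in A3B livers 23, 28 and 70. The log2 difference was 1.28 (SE 0.41, adjusted p = 0.0849), and without control 11, the control labelled with both transgenes, it was 1.63 (adjusted p = 0.0393). Over the main and all alternative runs it went from 0.64 to 1.63. With values centred on the median of each sample, the median over the 7 genes tested was 0.25, against 1.01 in the main run. The median of all genes tested was then -0.09, against 0.39. Txnrd1 was 34.5, 20.4 and 23.2 TPM in the controls and 53.4, 67.0 and 40.0 TPM in the A3B livers (log2 difference 1.01, SE 0.34, adjusted p = 0.0947). Control 11 was the highest control for both.

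A3B liver 28 stood apart for most of the others. Srxn1 was 602, 454 and 388 TPM in the controls and 935, 4491 and 410 TPM in A3B livers 23, 28 and 70, with a log2 difference of 1.34 (SE 0.79, adjusted p = 0.275) that was 0.39 without liver 28. Slc7a11 was 0.0528 to 0.122 TPM in the controls, 0.0708 TPM in A3B livers 23 and 70 and 8.92 TPM in liver 28. Osgin1 was 743, 375 and 439 TPM in the controls and 207, 1044 and 25.0 TPM in the A3B livers, so the A3B group lay on both sides of the controls (log2 difference -1.48, SE 1.18, adjusted p = 0.401). Gclc was 105, 38.8 and 29.0 TPM against 66.4, 152 and 99.8 TPM (log2 difference 1.01, SE 0.54, adjusted p = 0.23), and Gclm 43.2 to 82.8 TPM against 55.5 to 62.2 TPM (0.04, SE 0.33, adjusted p = 0.942). In liver 28 the hepatocyte markers summed to 18230 TPM, the lowest of the 6 livers, and the 10 ductal markers to 796 TPM against 13.9 to 49.0 TPM in the other 5, and their part in the values of liver 28 was not tested.

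In the lung, where transgene RNA was lower than in the liver, 3 of the 8 genes tested rose and none fell, against 16.1% of all genes called higher and 20.8% called lower. edgeR was not run on set 1, which holds no counts. In limma an unadjusted p under 0.05 was given to 4 of the 8, all higher, and to 6659 of all 13651 genes tested, in either direction. Gclc rose most, from 26.2, 35.9 and 26.8 TPM in controls 87, 88 and 91 to 59.6, 85.0 and 67.7 TPM in A3B lungs 69, 70 and 74 (log2 difference 1.23, SE 0.17, adjusted p = 0.00511), and it stayed called in every alternative run. Txnrd1 was 19.95, 23.2 and 16.5 TPM in the controls and 37.4, 29.9 and 24.8 TPM in the A3B lungs (0.59, SE 0.18, adjusted p = 0.0422). Nfe2l2 was 68.6, 62.0 and 48.7 TPM against 81.1, 76.1 and 87.8 TPM (0.46, SE 0.14, adjusted p = 0.0444). Both of the latter lay just under the threshold and lost the call without the filter on low values and when several single lungs were left out, Txnrd1 without control 87 or 91 or A3B lung 69 or 70 and Nfe2l2 without control 88 or 91 or any A3B lung.

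Markers of cell types also differed in the lung. The macrophage markers Marco (log2 difference 1.40, adjusted p = 0.00535) and Cd14 (0.99, adjusted p = 0.00526), the neutrophil marker Ngp (1.71, adjusted p = 0.0314), the fibroblast marker Pdgfra (0.76, adjusted p = 0.0119), the endothelial marker Cldn5 (0.49, adjusted p = 0.0142) and the islet marker Ppy (0.84, adjusted p = 0.013) were called higher by limma. The macrophage marker Lyz2 (-0.51, adjusted p = 0.00729), the club and alveolar type II markers Scgb3a2 (-0.70, adjusted p = 0.00579) and Sftpc (-0.33, adjusted p = 0.0236), and Pdpn (-0.58, adjusted p = 0.0215) and Kdr (-0.70, adjusted p = 0.0433) of alveolar type I and endothelial cells were called lower. Pdgfra and Cldn5 went against most of their lists. Of the 10 fibroblast markers 6 were below 0 and 4 above, with a list median of -0.44. Of the 10 alveolar type I and endothelial markers 7 were below 0 and 3 above, with a list median of -0.05. All 10 hepatocyte markers had a log2 difference above 0, none was called, and their mean log2(TPM + 1) ran from 2.32 to 6.43 in control lungs and from 3.14 to 6.90 in A3B lungs. The 12 macrophage markers summed to 1419 to 1520 TPM in control lungs and 1149 to 1414 TPM in A3B lungs. The part of these markers in the differences of the 10 genes was not tested.

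Gclc, Txnrd1, Nfe2l2 and Slc7a11 were higher in each A3B lung than in each control, against 23.3% of genes tested. Slc7a11 was 2.67 to 2.87 TPM in control lungs and 2.87 to 3.69 TPM in A3B lungs, a small step (log2 difference 0.15, SE 0.11, adjusted p = 0.299). Srxn1 was 246 to 310 TPM against 297 to 517 TPM (0.53, SE 0.21, adjusted p = 0.0854), Osgin1 28.4 to 44.6 TPM against 41.1 to 82.0 TPM (0.64, SE 0.28, adjusted p = 0.113) and Gclm 12.9 to 17.0 TPM against 16.7 to 19.5 TPM (0.25, SE 0.12, adjusted p = 0.157). Lung 69 was highest in 6 of the 8 genes. Gpx2, abundant in the lung at 103 to 120 TPM in controls, was 127, 85.3 and 67.6 TPM in A3B lungs 69, 70 and 74 (-0.31, SE 0.22, adjusted p = 0.302), and without lung 69 it was called lower (-0.55, adjusted p = 0.0426).

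Further genes of the pathway were read from lists. Of 36 other NRF2 targets 20 rose and none fell in A3B pancreases, against 17.0% of all genes tested called higher and 14.9% lower. In this list 24 were higher and none lower at an unadjusted p under 0.05 in edgeR, against 8318 of 19142 genes tested in either direction. DESeq2 called 22 of the list higher and none lower, against 3658 higher and 3424 lower of 26047 genes. The median log2 difference of the list was 1.13. Those with the smallest p were Gstm3 (4.50, SE 0.64), a glutathione transferase that went from a mean of 0.288 TPM in controls to 27.4 TPM; Gsr (1.87, SE 0.28), glutathione reductase; Pgd (1.45, SE 0.22) of the pentose phosphate pathway; the exporter Abcc3 (1.71, SE 0.27); Hmox1 (2.84, SE 0.46), heme oxygenase 1; and Ptgr1 (2.40, SE 0.43), with adjusted p from 0.000927 to 0.00261. Without pancreases 44 and 137, 17 of the 36 were called higher.

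For the liver of set 2 the same list had 1 gene called higher, the carbonyl reductase Cbr1 (1.98, SE 0.43, adjusted p = 0.0399), and 4 lower, Gsta3 (-2.001, SE 0.35, adjusted p = 0.0201), Mgst1 (-2.11, SE 0.46, adjusted p = 0.0396), Me1 (-1.54, SE 0.35, adjusted p = 0.0431) and Ces1g (-1.92, SE 0.45, adjusted p = 0.0484). Over all genes tested there 1.25% were called higher and 2.41% lower. Gsta3, a glutathione transferase of the liver, was 1330 and 1455 TPM in the controls and 278 to 624 TPM in the A3B livers. It also fell in the liver of set 1 (-1.84, SE 0.42, adjusted p = 0.0443), from 407 to 445 TPM in controls to 69.0 to 207 TPM. The list's median in the liver of set 2, -0.13, was 0.38 with counts scaled by their totals, when 2 were called higher and 1 lower. In the same comparison 8 of the 10 hepatocyte markers had a log2 difference below 0, Trf was called lower (-1.94, adjusted p = 0.0487), and their sums were those given above, lower in each A3B liver than in both controls; the part of this in the fall of these targets was not tested. Without control 45 or without control 168 no gene of this list was called in the liver of set 2.

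The difference between the tissues was tested for these genes too, and 12 of 36 had a more positive log2 difference in the pancreas than in the liver and 1, Cbr1 (-1.73), a less positive one, against 6.87% and 5.02% of all genes tested. Gsta3 (3.06, SE 0.47, adjusted p = 0.00208), Me1 (3.50, SE 0.54, adjusted p = 0.00209), Mgst1 (3.60, SE 0.66, adjusted p = 0.00527) and Gstm1 (3.79, SE 0.71, adjusted p = 0.00596) led the list. These 4 had opposite signs in the tissues: liver Gsta3 had -2.001 and pancreatic Gsta3 0.89, followed in that order by Mgst1 -2.11 and 1.32, Me1 -1.54 and 1.79, and Gstm1 -1.55 (adjusted p = 0.0629 in the liver) and 2.06. With the mouse as a replicate block 9 were more positive, without mouse 45 none was and without mouse 168 5 were.

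In the lung 3 of 33 tested targets rose and 7 fell, with 16.1% of all genes tested called higher and 20.8% lower, so the count that fell is near the share of all genes and the count that rose is below it. Gsr (0.53, SE 0.10, adjusted p = 0.00872) and Abcc4 (0.76, SE 0.15, adjusted p = 0.0117) were among those that rose. Prdx1 (-0.66, SE 0.09, adjusted p = 0.00448), Pir (-0.57, SE 0.11, adjusted p = 0.0115), Txn1 (-0.49, SE 0.11, adjusted p = 0.0163) and Slc48a1 (-0.39, SE 0.09, adjusted p = 0.0184) were among those that fell; with values centred on the median of each sample 3 rose and 3 fell.

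Of 12 regulators of NRF2, 7 rose and 1 fell in the pancreas (5 and none without control 45 or 168), where 17.0% of all genes tested were called higher and 14.9% lower. The repressor Bach1 (1.23, SE 0.23), Gsk3b (1.28, SE 0.24), the small MAF protein gene Maff (1.86, SE 0.36), the autophagy receptor Sqstm1 (1.54, SE 0.32), Keap1 (1.09, SE 0.24) and Nfe2l1 (0.98, SE 0.27) rose with adjusted p from 0.00312 to 0.0184, and Rbx1, a subunit of the ubiquitin ligase that KEAP1 works with, named after its values were seen, fell (-0.74, SE 0.22, adjusted p = 0.028). With counts scaled by their totals all 12 were called higher. In the lung, with 16.1% of all genes called higher and 20.8% lower, 5 rose and Rbx1 fell (-0.38, adjusted p = 0.0336), a call lost when values were centred. Maff rose most there (2.78, SE 0.34, adjusted p = 0.00436), from a mean of 82.6 TPM in controls to 536 TPM, and Bach1 (1.33, SE 0.14, adjusted p = 0.00288), Mafk (0.85, SE 0.13), Mafg (0.68, SE 0.09) and Gsk3b (0.51, SE 0.11) rose too. Maff was the 1 regulator of 12 called in the liver of set 1 (3.27, SE 0.74, adjusted p = 0.0438), against 6.07% of all genes tested called higher and 1.86% lower. No regulator was called in the liver of set 2 by edgeR, and 1 had an unadjusted p under 0.05, against 3987 of 17376 genes tested. DESeq2 called 1 higher there, against 1286 higher and 1060 lower of 24119 genes.

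**Figure D5:**
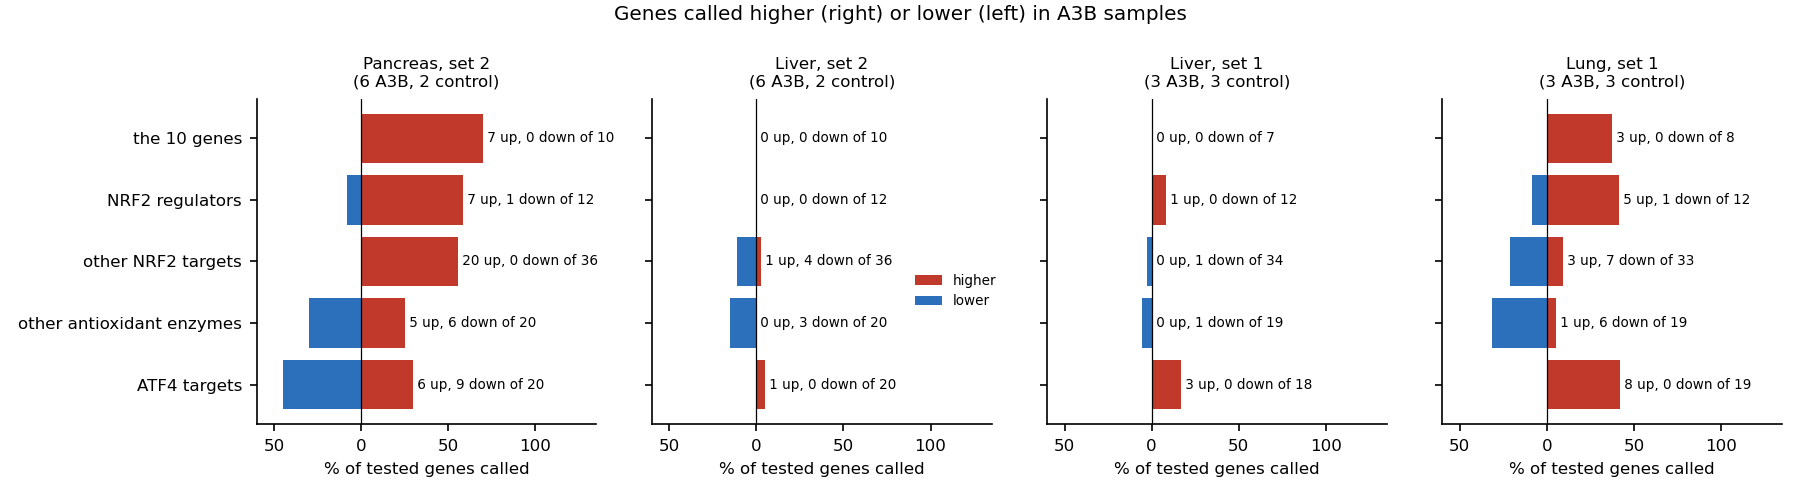
Percent of the tested genes of each list called higher (red, to the right) or lower (blue, to the left) at an adjusted p under 0.05 in each comparison, with the counts beside the bars. The pancreas has 20 of 36 other NRF2 targets called higher and the lung 3 higher and 7 lower of 33.

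The 20 other antioxidant enzymes, which include peroxidases and dismutases less tied to NRF2, were called in both directions. In the pancreas 5 rose and 6 fell, against 17.0% and 14.9% of all genes tested, with Prdx4, a peroxiredoxin of the endoplasmic reticulum, lowest (-4.87, SE 0.33, adjusted p = 6.06e-05), from a mean of 454 TPM in controls to 85.8 TPM, followed by Gpx4 (-1.25, SE 0.28), Nnt (-1.59, SE 0.38), Msra (-1.16, SE 0.28) and Prdx2 (-1.16, SE 0.31), whereas the glutathione synthetase Gss rose (0.92, SE 0.20), with adjusted p from 0.00685 to 0.016 for these 5. With counts scaled by their totals 17 were called higher and 1 lower, and without control 45 none was called higher and 2 lower. Among livers of set 2, Msra (-2.42, SE 0.24, adjusted p = 0.00372), Cat (-1.95, SE 0.39, adjusted p = 0.0296) and Prdx6 (-1.66, SE 0.34, adjusted p = 0.0324) fell and none rose by edgeR, against 2.41% and 1.25% of all genes tested. Fewer were called lower when either control was left out. At an unadjusted p under 0.05, 2 were higher and 9 lower, against 3987 of 17376 genes tested in either direction. DESeq2 called 1 higher and 4 lower, against 1286 higher and 1060 lower of 24119 genes. In the lung 6 of 19 fell, against 20.8% of all genes tested, and 1 rose, against 16.1%, Sesn1 (0.92, SE 0.14, adjusted p = 0.00546), and Prdx2 (-0.88, SE 0.11, adjusted p = 0.00425) and Prdx4 (-0.69, SE 0.10, adjusted p = 0.00503) fell most clearly.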

How the data were processed

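RNA-seq was done on 28 samples from separate mice within each tissue. For set 2 the authors quantified reads with kallisto (mm10) and deposited, for 119414 transcripts, TPM beside an expected count (estimated count), with no later normalization. For set 1 the authors aligned reads with STAR and deposited TPM per gene, made from a count matrix. Here 116728 transcripts (97.8%) were assigned to symbols with GENCODE M21 and both values were summed per gene, counts being rounded. Transcripts without a gene held at most 1.46% of the counts of a library. Counts were filtered with filterByExpr, scaled by TMM and tested with edgeR's robust quasi-likelihood F test. TPM of set 1 was taken as log2(TPM + 1), which understates the change of low genes, keeping genes that averaged 1 TPM or more, and tested with limma (trend, robust). P-values were two-sided and adjusted by Benjamini-Hochberg over all genes tested. Fits were tested on simulated data. The pairing of liver and pancreas comes from the mouse numbers in the titles, which mark the same animals.

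The 10 genes and the gene lists were chosen with earlier results of these data known. The text names all 10 genes and, from each list, up to 6 genes with the smallest p among those called. Alternatives were DESeq2, scaling by totals, no filter, limma on TPM, Y chromosome expression as a covariate, another pseudocount (0.1), centring, leaving out each sample, leaving out pancreases 44 and 137 together, and the mouse number as a replicate block. Software was R 4.3.3, edgeR 4.0.16, limma 3.58.1 and DESeq2 1.42.0.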

Additional observations from a re-analysis of the deposited data

Results flagged for a closer look

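In 20 groups of 6 samples, Dixon's test on log2(TPM + 1) set 2 values apart, and chance alone sets about 1 group in 20 apart. Txnrd1 in A3B liver 48, at 30.05 TPM, lay below the other 5 A3B livers, and Slc7a11 in A3B liver 49, at 8.22 TPM, lay above them. Liver 48 had the largest mitochondrial share, 21.5%, and the lowest sum of macrophage markers, 46.4 TPM, and liver 49 the highest sum, 1611 TPM. The part of these in both values was not tested.

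The log2 difference between A3B and control was more positive in the pancreas than in the liver, by an interaction test in edgeR, for Gclm by 1.73, for Gclc by 2.78 and for Txnrd1 by 1.71. For Gclm the liver value was -0.92 and the pancreas value 0.64, of opposite sign with TMM scaling, whereas with limma on log2(TPM + 1) they were -0.02 and 3.13. In the pancreas all 6 A3B samples lay above both controls in TPM for each of the 3, whereas in the liver the groups overlapped. With 2 control mice, both giving both tissues, none of the 3 stayed called when either was left out (adjusted p from 0.086 to 0.181).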

How the results depend on the processing

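No called gene of the 10 changed sign under any alternative run. Of the values of single genes under alternatives, 482 kept their side of the threshold, 26 lost the call and 23 gained it. In the pancreas the number called, 7 of 10, ran from 6 to 8 when single samples were left out, was 6 without pancreases 44 and 137, whose labels lack the driver, and was 10 with counts scaled by their totals and with limma on TPM. For the liver of set 2 (none of 10) it was 2 with DESeq2, 1 with Y chromosome expression as a covariate (Slc7a11, 3.35, adjusted p = 0.0467) and 0 to 1 when single samples were left out. For the liver of set 1 (none of 7) it was 0 to 1 when single samples were left out. In the lung (3 of 8) it was 1 without the filter on low values, when more genes entered the adjustment, and 1 to 4 when single samples were left out. For the difference between pancreas and liver (3 of 10) it was 2 with the mouse as a replicate block, 6 with counts scaled by their totals and 0 to 4 when single mice were left out, 0 without mouse 45 or 168; where a single control remains, it is assumed to vary like the other samples.

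Over all genes, the number called in the liver of set 2 was 636 (218 higher, 418 lower) and 2346 (1286 higher, 1060 lower) with DESeq2, 1119 (878 higher, 241 lower) by totals and 73 to 1596 when single samples were left out. In the pancreas it was 6100 (3252 higher, 2848 lower), 13693 (13483 higher, 210 lower) by totals, 11557 with limma and 3826 without control 45. In the liver of set 1 it was 913 (699 higher, 214 lower), 54 without the filter, 1125 (450 higher, 675 lower) when centred and 1 to 1562 when single samples were left out; in the lung 5029 and 2998 to 4579. For the tissue difference it was 2369 and 1619 with the replicate block, 3762 with DESeq2, 8071 by totals and 83 to 2958 when single mice were left out. The cause of these differences was not tested.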

Other observations

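Slc7a11, together with its partner Slc3a2, is also a target of ATF4, the transcription factor of the integrated stress response, and 20 ATF4 targets were read beside it. In the pancreas 6 of them rose and 9 fell, against 17.0% of all genes tested called higher and 14.9% lower. The enzymes of serine and one-carbon metabolism Phgdh (-2.84, SE 0.39), Psat1 (-1.85, SE 0.27) and Aldh1l2 (-5.28, SE 0.43) fell, as did the hormone Fgf21 (-5.53, SE 0.75), whereas Sesn2 (2.6996, SE 0.32) and the transcription factor Cebpb (2.22, SE 0.38) rose, with adjusted p from 0.000128 to 0.00196 in edgeR. With counts scaled by their totals 12 were called higher and 2 lower, and without control 45 6 were called higher and 4 lower.

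In the lung 8 of 19 tested ATF4 targets rose and none fell, against 16.1% and 20.8% of all genes tested. At an unadjusted p under 0.05 in limma, 10 were higher and none lower, against 6659 of 13651 genes tested in either direction. Sesn2 (1.27, SE 0.14), Vldlr (0.79, SE 0.10), Gdf15 (1.13, SE 0.14), the amino acid transporter Slc7a5 (1.93, SE 0.28), Ddit4 (2.56, SE 0.37) and Cebpb (0.65, SE 0.14) had adjusted p from 0.00294 to 0.0157 in limma, while Slc7a11 itself had a log2 difference of 0.15. In the livers 1 of 20 (set 2) and 3 of 18 (set 1) rose and none fell, against 1.25% and 6.07% of all genes tested called higher and 2.41% and 1.86% lower; 18 of 20 were above 0 in set 2, and those called in set 1 were Phgdh (2.38, SE 0.37, adjusted p = 0.0223), Ddit4 and Sesn2 (1.77, SE 0.32, adjusted p = 0.0285). Ddit4, a stress-induced inhibitor of mTORC1, was called higher in all 4 comparisons. It was 4.98 and 12.2 TPM in control livers of set 2 and 51.6 to 239 TPM in the A3B livers (3.48, SE 0.70, adjusted p = 0.0301), 38.6 to 51.4 TPM and 222 to 1101 TPM in the livers of set 1 (3.60, SE 0.57, adjusted p = 0.0228), and 9.20 and 12.1 TPM against 96.9 to 295 TPM in the pancreas (1.89, SE 0.52, adjusted p = 0.0191).

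The A3B livers 49 of set 2 and 28 of set 1, which were highest for most of the 10 genes, also had the highest mean level over the ATF4 targets of their sets, 5.12 and 4.98 on the log2(TPM + 1) scale, against 2.87 to 4.11 and 4.21 in the other A3B livers and 2.37 to 2.76 and 3.301 to 3.39 in the controls.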
